A study of Mus musculus with 2 samples.

Results

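Non-Hox homeobox genes encode transcription factors that carry a homeodomain, the DNA-binding fold that reads short AT-rich sites, but lie outside the Hox clusters. A fixed list of 49 such genes was looked up by symbol in the deposited table, and all 49 were found among its 23176 genes. They fall into 7 classes: 13 TALE genes (Irx, Meis, Pbx, Tgif and Pknox), 3 SINE genes (Six2, Six4 and Six5), 5 LIM genes (Lhx and Isl1), 6 POU genes, 13 ANTP genes (Msx, Nkx, Barx, Dlx, Emx1, En and Gbx2), 6 PRD genes (Pitx1, Otx, Shox2 and Alx) and 3 CUT genes (Cux and Satb1).

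Messenger RNA was sequenced in 2 mouse cell lines made from embryonic day 14 striatum on a 129SvEv/CD1 background. STHdhQ111 is homozygous for a huntingtin gene of the Q111 form, with an expanded polyglutamine tract, and its genotype is given as HdhQ111/Q111. STHdhQ7 is homozygous for the Q7 form (HdhQ7/Q7). Both were used at fewer than 15 passages, were grown at 33 °C and were held at 39 °C for 2 days to stop division. Each genotype is 1 line, so an effect of the huntingtin form and a difference of another origin between the cultures cannot be told apart. Lines of this kind are known to be kept dividing by a temperature-sensitive viral large T antigen. The labels name 3 replicates a line, and the deposited values are 1 combined value a line, in FPKM (fragments scaled by transcript length and by the number of mapped fragments). All fold changes, p-values and q-values below come from the authors' deposited table. A gene is called when its q is 0.05 or less over all tested genes, and a standard error (SE) is the one that the deposited statistic implies.

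Homeobox factors act in combinations to give cells their regional identity. In the embryonic brain, some mark the dorsal telencephalon (Emx, Otx and some Lhx genes). Others mark the ventral telencephalon from which the striatum and its interneurons arise (Nkx2-1, Lhx6, Lhx8 and Isl1). Pbx, Meis and Pknox proteins serve as widely expressed DNA-binding partners. Many of the same genes also pattern limb, face, kidney and heart.

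Of the 23176 genes in the table, 12740 were tested and 13.5% of those were called, 6.35% higher and 7.17% lower in STHdhQ111. Htt itself was listed at 2.83 FPKM in STHdhQ111 and 3.91 FPKM in STHdhQ7 and was not called (the authors' q = 0.663). The depth of the libraries is unknown. Most markers of striatal medium spiny neurons were near 0 in both lines. The dopamine receptor gene Drd1a was listed at 0 in both, and Ppp1r1b, which encodes DARPP-32, was at 0.0698 FPKM in STHdhQ111 and 0.136 FPKM in STHdhQ7.

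Of the 49 homeobox genes, 29 were tested and 20 were not. Among the 29, 3 were called higher in STHdhQ111 (Irx2, Irx3 and Six2), 7 were called lower (Lhx1, Lhx9, Pou3f3, Otx1, Shox2, Dlx3 and Six4) and 19 were not called. The called share was 34.5%, beside 13.5% over all tested genes. The median log2 ratio of (FPKM + 0.5) was -0.43 over the tested homeobox genes and -0.05 over all tested genes, and 20 of the 29 ratios lay below 0. Without regard to sign, the median size of the log2 ratio was 0.98 for the homeobox genes and 0.36 for all tested genes. These are descriptions of the list, since its members are related genes and each line gives 1 value. With the stricter Benjamini-Yekutieli adjustment, Dlx3, Lhx9 and Six4 were not called. Markers of other cells differed as well: the progenitor gene Sox2 was lower, at 0.561 FPKM in STHdhQ111 and 72.0 FPKM in STHdhQ7, and the fibroblast collagen gene Col1a2 was higher, at 532.6 FPKM in STHdhQ111 and 11.5 FPKM in STHdhQ7. Their part in the homeobox differences was not tested.

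At a level of 1 FPKM, 19 of the 49 were expressed in both lines, Irx2 and Six2 in STHdhQ111 alone, and Lhx1, Lhx9, Msx1, Msx2, Pknox2 and Pou3f3 in STHdhQ7 alone. The other 22 were under 1 FPKM in both. The summed level of all 49 was 180.5 FPKM in STHdhQ111 and 209.8 FPKM in STHdhQ7. Tgif1 ranked highest in both lines. Below it the order differed: Irx3 ranked 2 of 49 in STHdhQ111 and 13 in STHdhQ7, while Shox2 ranked 18 in STHdhQ111 and 3 in STHdhQ7. In bulk RNA, fewer cells that express a gene and less RNA per cell cannot be told apart.

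**Figure D1:**
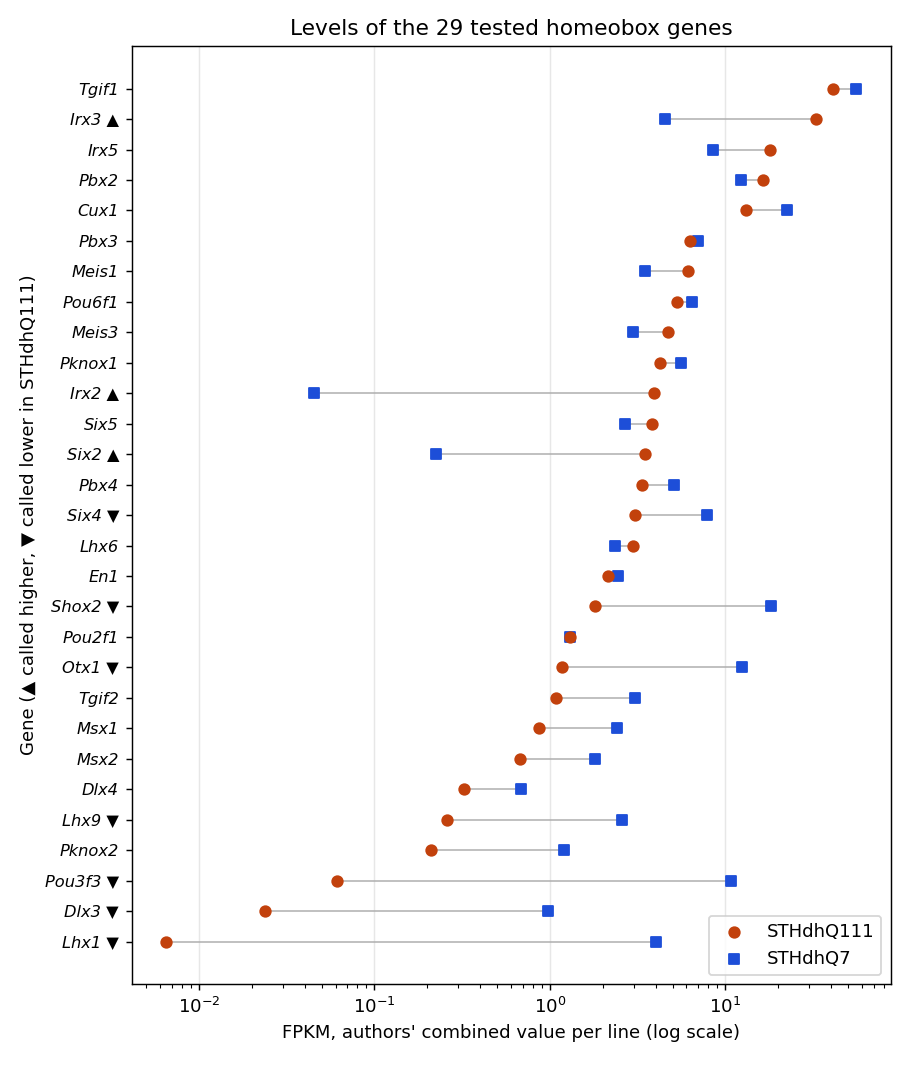
FPKM of the 29 tested homeobox genes in STHdhQ111 (circles) and STHdhQ7 (squares) on a log axis, ordered by the STHdhQ111 level, with triangles marking called genes. Irx2, Irx3 and Six2 lie to the right in STHdhQ111, whereas Lhx1, Dlx3 and Pou3f3 have the lowest STHdhQ111 levels.

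The Iroquois genes held 2 of the 3 called rises. Iroquois factors (Irx) are TALE repressors and activators that divide neural, limb and heart fields and occur in clusters of neighbouring genes. Irx3 (mm9 chromosome 8, 94322410 to 94325553), which patterns the neural tube and limb, was at 33.0 FPKM in STHdhQ111 and 4.54 FPKM in STHdhQ7, 7.28-fold higher. Irx3 had a log2 fold change of 2.86 ± 0.42 (SE; the authors' q = 6.38e-10). Irx2 (mm9 chromosome 13, 72766426 to 72771642) was at 3.94 FPKM in STHdhQ111 and 0.0454 FPKM in STHdhQ7. Irx2 had a log2 fold change of 6.44 ± 1.01 (SE; the authors' q = 1.11e-08). The STHdhQ7 level of Irx2 was near 0, so its fold depends on a very low value, and its log2 ratio with 0.5 FPKM added to both lines was 3.03.

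Irx5, the cluster partner of Irx3 that acts with it in limb and heart, was at 18.0 FPKM in STHdhQ111 and 8.51 FPKM in STHdhQ7. It was not called (log2 fold change 1.08, implied standard error 0.42, the authors' q = 0.0637), but its q was 0.0476 once fold changes were centred on the median gene, that is on the median log2 fold change of -0.05 over tested genes that averaged at least 1 FPKM. Irx1, the cluster partner of Irx2, was at 0.354 FPKM in STHdhQ111 and 0.400 FPKM in STHdhQ7 and had no test. The members of each cluster therefore stood at unlike levels, and on chromosome 13 only Irx2 of the listed pair was above 1 FPKM, and only in STHdhQ111. Summed over the 4 genes, Iroquois transcripts made up 55.4 FPKM in STHdhQ111 and 13.5 FPKM in STHdhQ7.

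The stretch before the Irx2 start is shown because a noncoding RNA gene on the other strand, Gm20554, starts just beyond it. By GENCODE M21 on GRCm38, the starts of Irx2 and Gm20554 lie head to head, 256 bases apart. The 250 bases before the RefSeq start of Irx2 (GRCm38.p6, 5′ to 3′ on the strand of Irx2) hold 19 CpG dinucleotides, in capitals, the dinucleotide whose cytosine can be methylated in mammals.
Irx2, chr13:72628570-72628819, plus strand: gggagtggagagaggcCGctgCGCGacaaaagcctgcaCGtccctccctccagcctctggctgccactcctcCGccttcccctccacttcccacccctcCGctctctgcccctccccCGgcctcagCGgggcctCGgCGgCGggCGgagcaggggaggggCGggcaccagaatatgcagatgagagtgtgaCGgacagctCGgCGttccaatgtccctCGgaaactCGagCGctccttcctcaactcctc
Gm20554 was at 0.721 FPKM in STHdhQ111 and 0.0436 FPKM in STHdhQ7 and was called higher, like Irx2 (log2 fold change 4.05, implied standard error 0.86, the authors' q = 6.03e-05).

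The SINE class moved in both directions. SINE factors are activators that work with Eya and Dach cofactors in muscle, kidney and sense organs. Six2 (mm9 chromosome 17, 86083608 to 86087594), which keeps kidney nephron progenitors undifferentiated, was at 3.49 FPKM in STHdhQ111 and 0.226 FPKM in STHdhQ7, 15.5-fold higher. Six2 had a log2 fold change of 3.95 ± 0.62 (SE; the authors' q = 7.47e-09), and its log2 ratio with 0.5 FPKM added was 2.46. Six4 (mm9 chromosome 12, 74201246 to 74214232), which acts in muscle formation, was at 3.05 FPKM in STHdhQ111 and 7.90 FPKM in STHdhQ7, 2.59-fold lower. Six4 had a log2 fold change of -1.37 ± 0.43 (SE; the authors' q = 0.0131). Six5, the gene beside the myotonic dystrophy kinase Dmpk, was at 3.83 FPKM in STHdhQ111 and 2.67 FPKM in STHdhQ7 and was not called (the authors' q = 0.709). Summed levels of the 3 were close, 10.4 FPKM in STHdhQ111 and 10.8 FPKM in STHdhQ7, but Six4 was the most abundant of the 3 in STHdhQ7 and the least abundant in STHdhQ111.

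In the LIM class Lhx1 and Lhx9 fell in STHdhQ111, and Lhx6 was not called. LIM-homeodomain proteins bind DNA together with Ldb adaptors and set neuronal subtype. Lhx1 (mm9 chromosome 11, 84332881 to 84339036), needed for head formation and kidney development, was at 0.00649 FPKM in STHdhQ111 and 4.01 FPKM in STHdhQ7. Lhx1 had a log2 fold change of -9.27 ± 2.60 (SE), a 95% interval of -14.37 to -4.17 (the authors' q = 0.00442), and its log2 ratio with 0.5 FPKM added was -3.16. Lhx9 (mm9 chromosome 1, 140721763 to 140744156), which acts in gonad and limb formation, was at 0.259 FPKM in STHdhQ111 and 2.58 FPKM in STHdhQ7, 9.98-fold lower. Lhx9 had a log2 fold change of -3.32 ± 1.10 (SE; the authors' q = 0.0227), and its log2 ratio with 0.5 FPKM added was -2.02.

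Lhx6, which specifies interneurons of the medial ganglionic eminence, was at 2.97 FPKM in STHdhQ111 and 2.36 FPKM in STHdhQ7 and was not called (the authors' q = 0.918). The upstream factor Nkx2-1 was at 0.0845 FPKM in STHdhQ111 and 0.0899 FPKM in STHdhQ7, and Lhx8, a factor of basal forebrain cholinergic neurons, was listed at 0 in STHdhQ111 and at 0.147 FPKM in STHdhQ7. Isl1, a factor of motor and striatonigral neurons, was listed at 0 in both. Lhx6 was above 1 FPKM in both lines, while Nkx2-1 and Lhx8 were untested. Of the 6 listed markers of medial ganglionic eminence interneurons, Sox6 alone was tested, and it was lower in STHdhQ111 (0.0131 FPKM, against 5.78 FPKM in STHdhQ7). The other 5 (Gad1, Gad2, Sst, Npy and Erbb4) were at 0.0788 FPKM or less in both lines.

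The stretch before the Lhx1 start is shown because another noncoding RNA gene, Lhx1os (1500016L03Rik in the table), starts inside it on the other strand, 125 bases from the GENCODE start of Lhx1. The 250 bases before the RefSeq start of Lhx1 hold 26 CpG dinucleotides, in capitals.
Lhx1, chr11:84525535-84525784, minus strand: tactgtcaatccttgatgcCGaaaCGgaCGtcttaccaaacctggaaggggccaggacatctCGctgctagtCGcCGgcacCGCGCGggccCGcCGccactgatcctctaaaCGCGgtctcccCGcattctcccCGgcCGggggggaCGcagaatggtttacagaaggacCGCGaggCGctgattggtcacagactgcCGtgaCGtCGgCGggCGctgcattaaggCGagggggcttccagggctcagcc
Lhx1os was at 0.0329 FPKM in STHdhQ111 and 2.79 FPKM in STHdhQ7. Lhx1os had a log2 fold change of -6.41 ± 2.62 (SE), and it was not called (the authors' q = 0.0915).

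Among POU genes, Pou3f3 alone was called. POU proteins pair a homeodomain with a POU-specific domain, and the Pou3f group (Brn factors) acts in neural progenitors and cortical neurons. Pou3f3 (mm9 chromosome 1, 42753991 to 42757054), the Brn1 factor of upper-layer cortical neurons, was at 0.0612 FPKM in STHdhQ111 and 10.7 FPKM in STHdhQ7. Pou3f3 had a log2 fold change of -7.46 ± 1.12 (SE; the authors' q = 1.56e-09), and its log2 ratio with 0.5 FPKM added was -4.32. The paralogs Pou3f1, Pou3f2 and Pou3f4 were untested. Pou3f1 was at 0.144 FPKM in STHdhQ111 and 0.0147 FPKM in STHdhQ7, Pou3f2 at 0.0551 FPKM in STHdhQ111 and 0.0538 FPKM in STHdhQ7, and Pou3f4 at 0.0220 FPKM in STHdhQ111 and 0.0365 FPKM in STHdhQ7. Summed Pou3f levels were 0.283 FPKM in STHdhQ111 and 10.8 FPKM in STHdhQ7.

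The widely expressed Pou2f1 (Oct-1) was at 1.30 FPKM in STHdhQ111 and 1.31 FPKM in STHdhQ7, with a log2 fold change of -0.01 and an interval of -1.03 to 1.01. Its direction turned, to 0.043, when fold changes were centred on the median gene. Pou6f1, a neural POU factor, was at 5.30 FPKM in STHdhQ111 and 6.47 FPKM in STHdhQ7 and was not called (the authors' q = 0.882). Of the 36-base words of Pou3f3 transcripts, 99.2% occurred in no other gene's transcripts on either strand. For Pou2f1 the share was 82.6%, and Cd247 shared more of the rest than any other gene.

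The stretch before the Pou3f3 start is shown because the neighbouring entries on both of its sides were called lower too. Pantr1 (2610017I09Rik in the table), a noncoding RNA gene, starts 926 bases away on the other strand by GENCODE M21. The 250 bases before the RefSeq start of Pou3f3 hold 15 CpG dinucleotides, in capitals.
Pou3f3, chr1:42695518-42695767, plus strand: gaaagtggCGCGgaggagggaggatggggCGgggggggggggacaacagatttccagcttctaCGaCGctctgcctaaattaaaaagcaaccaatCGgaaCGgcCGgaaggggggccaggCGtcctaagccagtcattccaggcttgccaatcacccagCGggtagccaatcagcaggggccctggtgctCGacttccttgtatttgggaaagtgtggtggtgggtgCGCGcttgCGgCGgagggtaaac
Pantr1 was listed at 0 in STHdhQ111 and at 5.22 FPKM in STHdhQ7 and was called lower (the authors' q = 0.000838). On the other side, 2900092D14Rik lies 126 bases past the Pou3f3 locus on mm9. It was at 0.0320 FPKM in STHdhQ111 and 1.10 FPKM in STHdhQ7 and was called lower (log2 fold change -5.10, implied standard error 1.44, the authors' q = 0.00486). No gene of that name was found in GENCODE M21. There Pou3f3 spans 42695768 to 42703176 on GRCm38, longer than its mm9 locus. Whether 2900092D14Rik is a gene apart from Pou3f3 was not tested. The next gene, Mrps9, was at 14.4 FPKM in STHdhQ111 and 18.9 FPKM in STHdhQ7 and was not called.

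**Figure D2:**
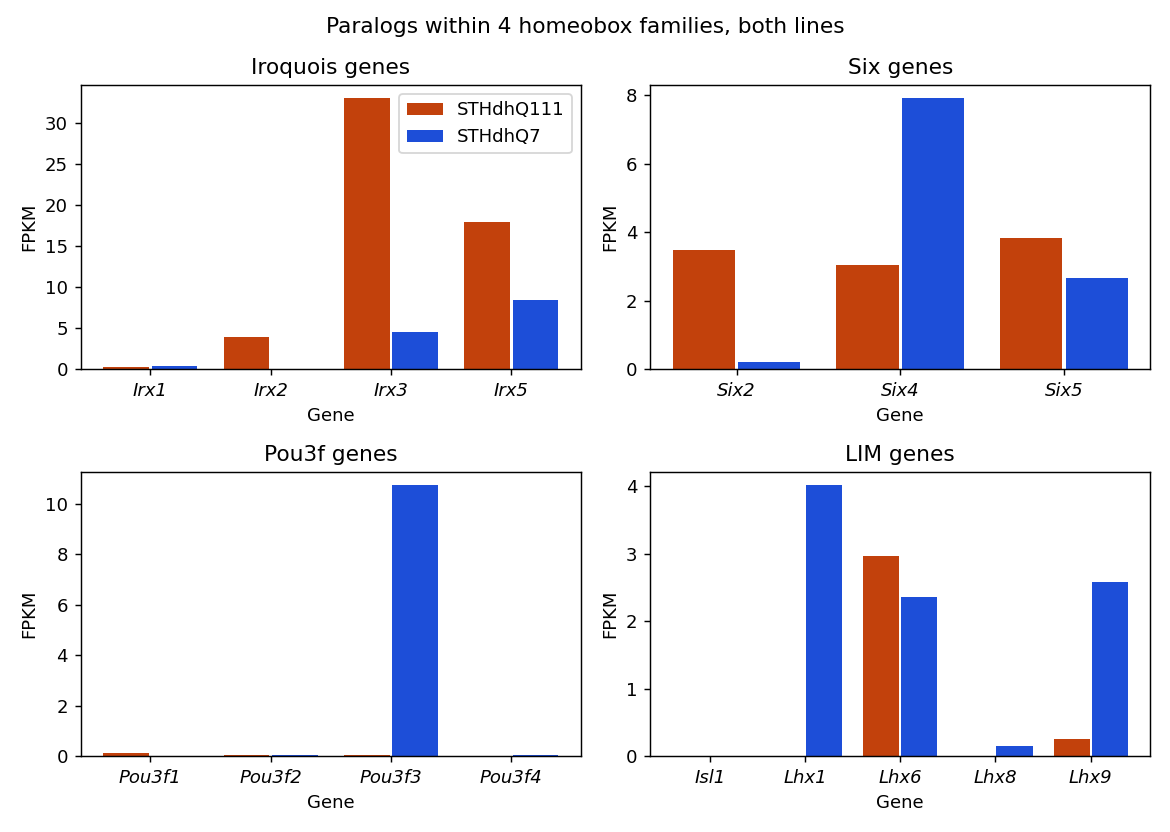
FPKM of the Iroquois, SINE, Pou3f and LIM genes, with STHdhQ111 bars left of STHdhQ7 bars (1 combined value each, no error available). Irx3 and Irx5 dominate the Iroquois panel in STHdhQ111, Pou3f3 is the tall bar of its panel in STHdhQ7, and Lhx6 is present in both lines.

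Of the listed PRD genes, both that were tested, Otx1 and Shox2, fell in STHdhQ111. PRD genes outside the list did not all fall. Prrx1 was at 101.5 FPKM in STHdhQ111 and 93.7 FPKM in STHdhQ7 and was not called. Prrx2, at 97.5 FPKM in STHdhQ111 and 73.9 FPKM in STHdhQ7, was not called either, while Pax6 was called lower. Otx1 (mm9 chromosome 11, 21894767 to 21901654), which shapes cortex and sense organs, was at 1.17 FPKM in STHdhQ111 and 12.4 FPKM in STHdhQ7, 10.6-fold lower. Otx1 had a log2 fold change of -3.41 ± 0.57 (SE; the authors' q = 8.49e-08). Shox2 (mm9 chromosome 3, 66777191 to 66785693), a factor of limb, palate and the cardiac pacemaker, was at 1.80 FPKM in STHdhQ111 and 18.1 FPKM in STHdhQ7, 10.05-fold lower. Shox2 had a log2 fold change of -3.33 ± 0.55 (SE; the authors' q = 5.17e-08). Otx1 and Shox2 both ranked among the 4 highest of the listed homeobox genes in STHdhQ7, and their falls were of about the same size. Reads of Shox2 can be shared with Rsrc1, which overlaps its exons on the other strand, and 96.4% of its 36-base words were its own. Rsrc1 was at 9.65 FPKM in STHdhQ111 and 17.8 FPKM in STHdhQ7 and was not called. Otx2, the forebrain and midbrain partner of Otx1, and Alx1 were listed at 0 in both lines. Alx4, a craniofacial factor, was at 0.114 FPKM in STHdhQ111 and 0.115 FPKM in STHdhQ7. Pitx1, the hindlimb factor, was at 0.0124 FPKM in STHdhQ111 and was listed at 0 in STHdhQ7.

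The 5 tested ANTP genes among the 49 had log2 ratios below 0, also when centred on the median gene, and of these Dlx3 alone was called. Over all tested genes, 6949 of 12740 ratios lay below 0. ANTP genes outside the 49 also went the other way: Nkx2-9, Vax2 and Dlx2 were called higher in STHdhQ111. Dlx3 (mm9 chromosome 11, 94981431 to 94986605), a factor of placenta, teeth and hair, was at 0.0238 FPKM in STHdhQ111 and 0.980 FPKM in STHdhQ7. Dlx3 had a log2 fold change of -5.37 ± 1.55 (SE; the authors' q = 0.00630). Both levels were below 1 FPKM, and the log2 ratio with 0.5 FPKM added was -1.50. Its neighbour and paralog Dlx4, whose locus in the table is shared with A730090H04Rik, was at 0.323 FPKM in STHdhQ111 and 0.685 FPKM in STHdhQ7 and was not called (the authors' q = 0.659).

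Msx1 and Msx2 are repressors that BMP signals induce in face, teeth and limb. Msx1 was at 0.865 FPKM in STHdhQ111 and 2.41 FPKM in STHdhQ7, with a log2 fold change of -1.48 ± 0.69 (SE; the authors' p = 0.0329 and q = 0.173). Msx2 was at 0.672 FPKM in STHdhQ111 and 1.80 FPKM in STHdhQ7, with a log2 fold change of -1.43 ± 0.71 (SE; the authors' p = 0.0440 and q = 0.216). Neither Msx gene passed the threshold. En1, a factor of the midbrain-hindbrain border and limb ectoderm, was at 2.14 FPKM in STHdhQ111 and 2.45 FPKM in STHdhQ7 (the authors' q = 0.961). The other 8 ANTP genes (Nkx2-1, Nkx2-2, Nkx6-1, Barx1, Barx2, Emx1, En2 and Gbx2) were untested. Barx2, a factor of muscle and epithelium, was the highest of them, at 0.299 FPKM in STHdhQ111 and 0.0333 FPKM in STHdhQ7, and the cortical factor Emx1 was listed at 0 in both lines.

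The 9 Pbx, Meis, Pknox and Tgif genes among the 49 held no call. Meis2, which is not one of the 49, was called lower, at 6.16 FPKM in STHdhQ111 and 17.9 FPKM in STHdhQ7 (log2 fold change -1.54 ± 0.46 SE, the authors' q = 0.00839). Pbx, Meis and Pknox proteins bind DNA beside Hox and other homeodomain proteins, and Tgif proteins repress retinoid and TGF-beta responses. Of these 9 genes, 0 were called by the authors' Cuffdiff test, and 2 (Pknox2 and Tgif2) had an unadjusted p of 0.05 or less. Tgif1 was at 41.3 FPKM in STHdhQ111 and 55.6 FPKM in STHdhQ7, with a log2 fold change of -0.43 and an interval of -1.26 to 0.40. Pbx2 was at 16.5 FPKM in STHdhQ111 and 12.2 FPKM in STHdhQ7, with a log2 fold change of 0.43 and an interval of -0.36 to 1.21. Both intervals include 0 and also include a 2-fold change in 1 direction.

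Pbx3 was at 6.27 FPKM in STHdhQ111 and 6.96 FPKM in STHdhQ7, and Pbx4 at 3.35 FPKM in STHdhQ111 and 5.07 FPKM in STHdhQ7. Meis1 was at 6.09 FPKM in STHdhQ111 and 3.47 FPKM in STHdhQ7 (the authors' q = 0.368), and Meis3 at 4.73 FPKM in STHdhQ111 and 2.97 FPKM in STHdhQ7 (the authors' q = 0.579). All 5 Pbx and Meis genes of the 49 differed by less than 2-fold, 3 of them above and 2 below their STHdhQ7 level. Pknox1 was at 4.22 FPKM in STHdhQ111 and 5.59 FPKM in STHdhQ7. Pknox2 was at 0.210 FPKM in STHdhQ111 and 1.20 FPKM in STHdhQ7, with a log2 fold change of -2.52 ± 1.24 (SE; the authors' p = 0.0431 and q = 0.213). Tgif2 was at 1.08 FPKM in STHdhQ111 and 3.07 FPKM in STHdhQ7, with a log2 fold change of -1.51 (the authors' p = 0.0360 and q = 0.185). The value of Tgif2 is uncertain, since 30.4% of its 36-base words occurred in no other gene's transcripts and pseudogenes are among the genes that share the rest. Summed over the Pbx, Meis and Pknox genes of the 49, the level was 41.3 FPKM in STHdhQ111 and 37.5 FPKM in STHdhQ7.

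In the CUT class Cux1, a broadly expressed repressor, was at 13.1 FPKM in STHdhQ111 and 22.4 FPKM in STHdhQ7 and was not called (log2 fold change -0.77, interval -1.68 to 0.13, the authors' q = 0.371). Cux2, its paralog in upper-layer cortical neurons, had no test, at 0.227 FPKM in STHdhQ111 and 0.0152 FPKM in STHdhQ7. When every gene with a deposited p was adjusted together, its q was 0.0236. Satb1, a chromatin organiser of lymphocytes and interneurons, was untested at 0.0703 FPKM in STHdhQ111 and 0.0658 FPKM in STHdhQ7. Of the 20 untested genes, 14 were under 0.1 FPKM in both lines, and Irx1 had the highest value of them, 0.400 FPKM in STHdhQ7.

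**Figure D3:**
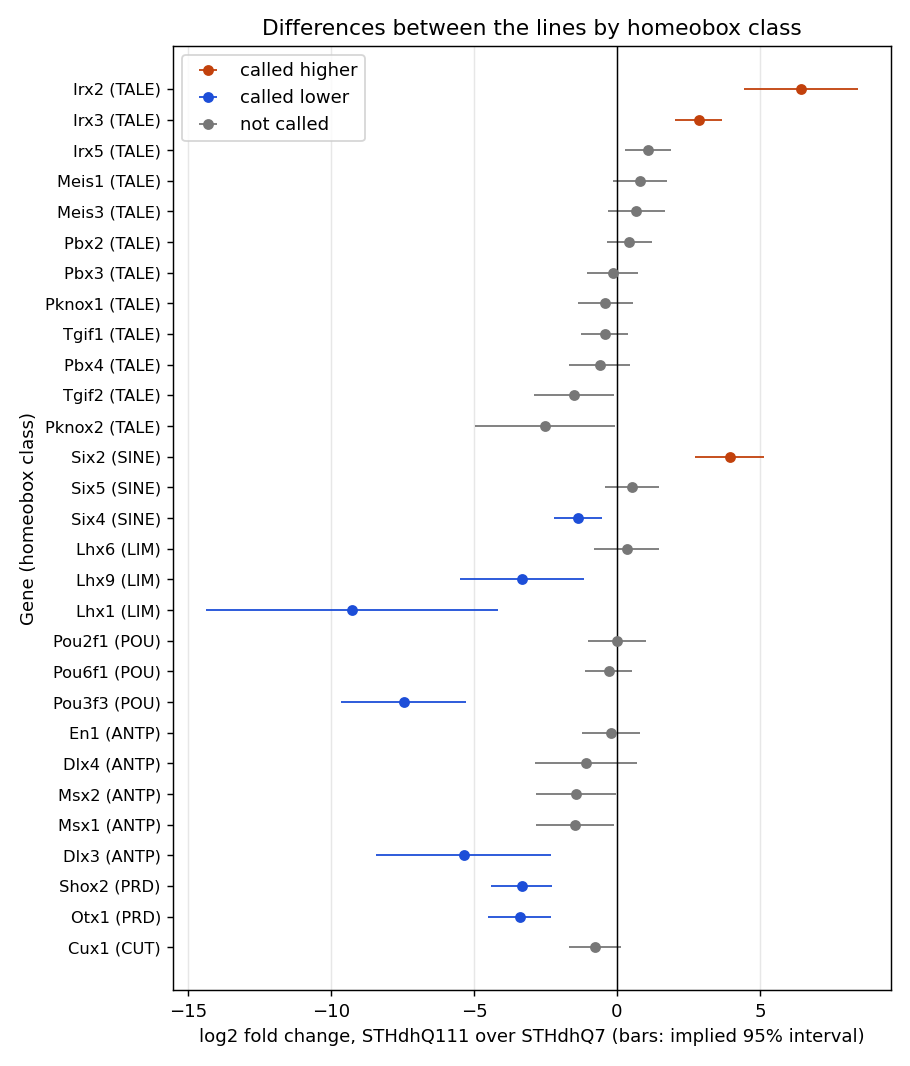
Log2 fold change of each tested homeobox gene, STHdhQ111 over STHdhQ7, with its implied 95% interval, grouped by class from TALE at the top to CUT at the bottom. The called rises are Irx2, Irx3 and Six2, and the widest interval is that of Lhx1, from -14.37 to -4.17.

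Genes beside the called homeobox genes were compared along the mm9 chromosomes. Pou3f3 and Irx2 had adjoining entries called in their own direction, as given above. Of 10 called homeobox genes with a tested nearest gene, 4 (40%: Pou3f3, Dlx3, Six4 and Irx2) shared their call with one. Over other called genes it was 294 of 1414 (20.8%). The difference was not tested. A neighbour of Dlx3 was the integrin gene Itga3, called lower at 20.9 FPKM in STHdhQ111 and 42.5 FPKM in STHdhQ7 (the authors' q = 0.0469), a call that held at a q of 0.1 and was lost under the other 6 alternatives tried. Beyond Irx5 and the untested Irx6 lies the matrix metalloproteinase gene Mmp2, called higher, at 166.3 FPKM in STHdhQ111 and 62.2 FPKM in STHdhQ7. Between Irx3 and Irx5, the noncoding RNA gene Crnde (4933436C20Rik in the table) was at 1.58 FPKM in STHdhQ111 and 0.769 FPKM in STHdhQ7 and was not called. The tested nearest genes of Lhx9 and Otx1 were not called. On one side of Shox2, which fell, lies Ptx3, called higher, at 130.9 FPKM in STHdhQ111 and 3.28 FPKM in STHdhQ7 (log2 fold change 5.32 ± 0.45 SE). The table gives Ptx3 and the uncalled Veph1 the same locus, 676449 bases from Shox2. Library strand is not described, so reads of overlapping genes on opposite strands cannot be told apart. This touches Irx3, where an antisense gene overlaps its exons and 94.4% of its 36-base words were its own.

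**Figure D4:**
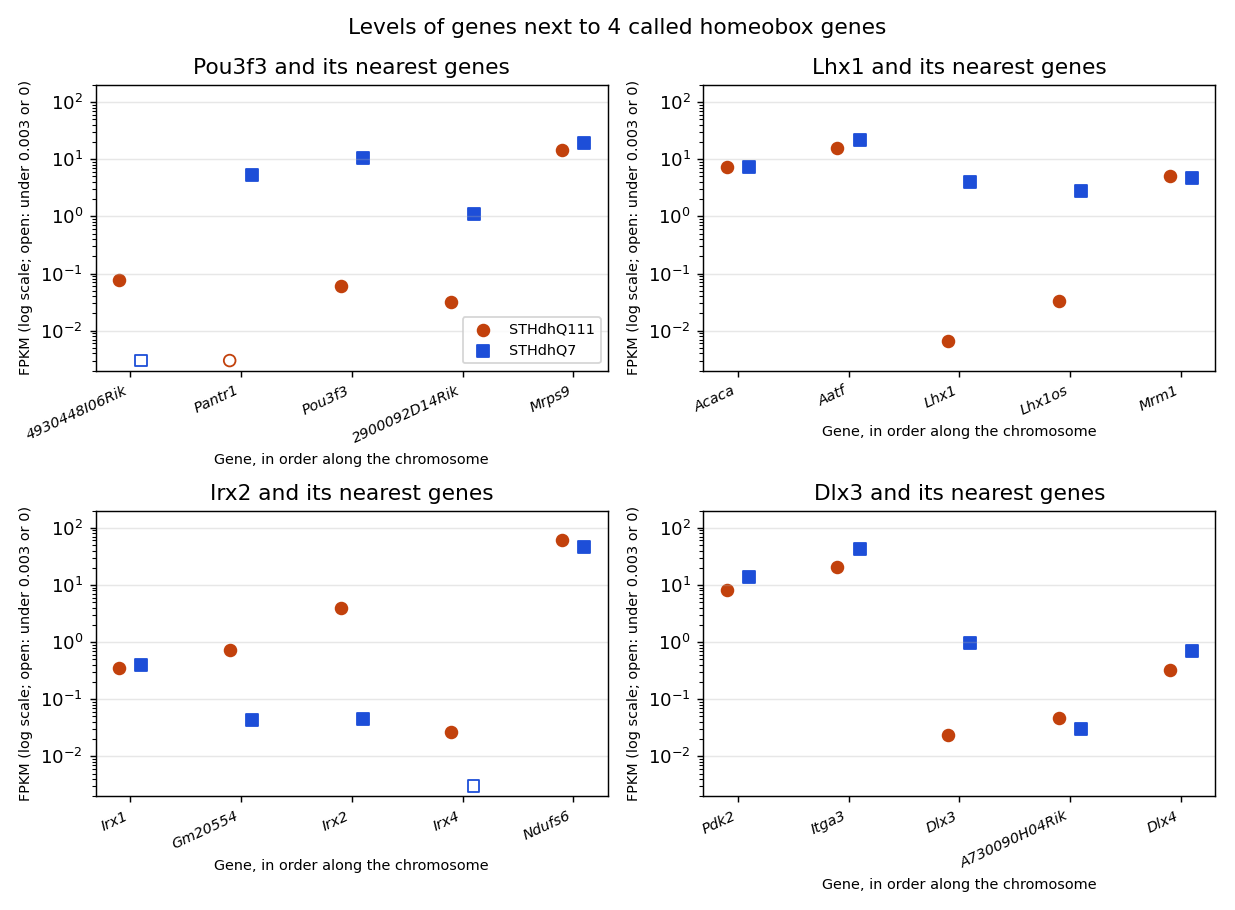
FPKM on a log axis of Pou3f3, Lhx1, Irx2 and Dlx3 with the 2 nearest genes on each side in chromosome order, STHdhQ111 as circles and STHdhQ7 as squares, with open symbols for values at or near 0. The noncoding genes Pantr1 and Lhx1os and the entry 2900092D14Rik lie low in STHdhQ111 beside Pou3f3 and Lhx1. Gm20554 lies high in STHdhQ111 beside Irx2.

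Start regions were compared by their CpG content in the RefSeq windows of 300 bases, taking the window with most CpG for each gene. Windows matched 35 of the 49 homeobox genes, 8 of the called ones among them. The median was 23 CpG a window for the 35, of which 13 were untested, and 17 for the 8 called. It was 15 for all 15649 genes with a window, 22 for 8950 tested genes and 19 for all 1191 called genes. The called genes ranged from 6 CpG (Lhx9) to 37 (Six2). The core homeodomain word TAATTA, on either strand, was in 2 of the 35 windows (Msx2 and the untested Otx2), or 5.71%. It was in 4.49% of the 15649 windows, 2.02% of those of tested genes and 7.79% of those of untested genes. The octamer ATGCAAAT of POU factors, on either strand, was in none of the 35. It was in 1.66% of the 15649 windows and 1.42% of those of tested genes. The word TGACAG of Meis and Tgif proteins, on either strand, was in 7 of the 35 windows, or 20%. It was in 18.3% of the 15649 windows and 16.1% of those of tested genes. Among those 7, Lhx1, Lhx9, Pou3f3 and Six2 were called and En1, Six5 and Tgif1 were not. The 3 words do not overlap one another in sequence. DNA methylation was not analysed here.

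Cofactors of homeodomain proteins were called in both directions. Of 18 tested genes in this list, 3 were called higher, 2 lower and 13 were not called. This was 27.8% called in all, beside 13.5% over all tested genes. Eya4, a coactivator of SINE proteins, was at 20.1 FPKM in STHdhQ111 and 3.38 FPKM in STHdhQ7 (the authors' q = 8.27e-08). The Groucho-family genes Tle1 and Tle6 were called higher too. Tle6 was at 9.79 FPKM in STHdhQ111 and 1.42 FPKM in STHdhQ7 (the authors' q = 1.07e-06), and Tle1 at 17.6 FPKM in STHdhQ111 and 8.40 FPKM in STHdhQ7 (the authors' q = 0.0463). The call of Tle1 was lost at a q of 0.01, with Benjamini-Yekutieli adjustment, with a 4-fold minimum and when every gene with a deposited p was adjusted. The LIM-only genes Lmo4 and Lmo1, whose products compete for Ldb adaptors, were called lower. Lmo4 was at 32.9 FPKM in STHdhQ111 and 110.8 FPKM in STHdhQ7 (the authors' q = 0.000561), and Lmo1 at 3.71 FPKM in STHdhQ111 and 13.5 FPKM in STHdhQ7 (the authors' q = 0.00772). The Ldb1 adaptor itself was at 121.6 FPKM in STHdhQ111 and 78.5 FPKM in STHdhQ7 and was not called. Another Groucho-family gene, Aes, at 214.6 FPKM in STHdhQ111 and 384.0 FPKM in STHdhQ7, was not called either.

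Of a further 121 homeobox genes outside the Hox clusters and outside the 49, 118 were in the table and 38 were tested. There, 4 were called higher, 11 lower and 23 were not called, 39.5% called in all, with a median log2 ratio of -0.32. Among the 4 called higher, Nkx2-9 was at 10.9 FPKM in STHdhQ111 and 0.0688 FPKM in STHdhQ7, and Dlx2, a factor of striatal progenitors, at 5.73 FPKM in STHdhQ111 and 1.94 FPKM in STHdhQ7. Vax2 was at 4.97 FPKM in STHdhQ111 and 0.385 FPKM in STHdhQ7. Among those called lower, Lhx2 was at 3.28 FPKM in STHdhQ111 and 59.0 FPKM in STHdhQ7, Pax2 at 0.618 FPKM in STHdhQ111 and 19.98 FPKM in STHdhQ7, and Zhx2 at 4.96 FPKM in STHdhQ111 and 19.4 FPKM in STHdhQ7. Others called lower were Cdx2, Emx2, Meis2, Nkx2-5, Pax6, Zeb2 and Zfhx4. The mesenchymal factors Prrx1 (101.5 FPKM in STHdhQ111 and 93.7 FPKM in STHdhQ7) and Prrx2 (97.5 FPKM in STHdhQ111 and 73.9 FPKM in STHdhQ7) were not called. The called shares of this list and of the 49 both stood above the 13.5% of all tested genes, and their difference was not tested.

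Of 21 tested genes of BMP and hedgehog signalling, which stand upstream of Msx and Nkx genes in patterning, 4 were called higher, 3 lower and 14 were not called. Over those 21 genes the log2 ratio had a median of -0.02 and a mean of 0.08, which differ in sign. The called share was 33.3%, beside 13.5% over all tested genes. The BMP ligands went both ways. Bmp2 was listed at 0 in STHdhQ111 and at 3.42 FPKM in STHdhQ7 (the authors' q = 1.44e-05). Bmp7 was at 1.47 FPKM in STHdhQ111 and 0.0857 FPKM in STHdhQ7 (the authors' q = 5.59e-05). Bmp4 had the highest level of the listed ligands, at 28.3 FPKM in STHdhQ111 and 16.6 FPKM in STHdhQ7. Bmp6 was at 0.814 FPKM in STHdhQ111 and 1.07 FPKM in STHdhQ7. Neither Bmp4 (the authors' q = 0.232) nor Bmp6 (the authors' q = 0.912) was called. The antagonist Nog rose to 3.82 FPKM in STHdhQ111, against 0.161 FPKM in STHdhQ7, and the antagonist Grem1 fell to 16.6 FPKM in STHdhQ111, against 90.05 FPKM in STHdhQ7. Smad6, an inhibitor of BMP signalling, was at 20.7 FPKM in STHdhQ111 and 5.97 FPKM in STHdhQ7. The general BMP targets Id1 (151.1 FPKM in STHdhQ111 and 155.8 FPKM in STHdhQ7) and Id3 (296.1 FPKM in STHdhQ111 and 227.1 FPKM in STHdhQ7) were not called. Of the hedgehog genes, the receptor Ptch1 rose to 14.2 FPKM in STHdhQ111, against 6.13 FPKM in STHdhQ7, and Gli2 fell to 0.606 FPKM in STHdhQ111, against 3.43 FPKM in STHdhQ7.

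Some markers of other cell types also differed between the lines, and others were not called or untested. Of 7 fibroblast and mesenchymal markers, 3 were called higher (Col1a1, Col1a2 and Pdgfra) and 4 were not called (Col3a1, Pdgfrb, Twist1 and Prrx1, which is itself a homeobox gene of the list above). Their summed level was 2431 FPKM in STHdhQ111 and 789.4 FPKM in STHdhQ7. Of 5 neural progenitor markers, Nes, Sox2 and the homeobox gene Pax6 were called lower, Vim was not called and Fabp7 was untested. Nes was at 0.999 FPKM in STHdhQ111 and 35.99 FPKM in STHdhQ7. The sum over the 5, mostly Vim, was 2484 FPKM in STHdhQ111 and 3426 FPKM in STHdhQ7.

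Among the 6 pan-neuronal markers in the table, Stmn2 was called lower, Tubb3 was not called, and Rbfox3, Dcx, Snap25 and Syt1 were untested at 0.0369 FPKM or less. Their sum was 3.78 FPKM in STHdhQ111 and 35.9 FPKM in STHdhQ7, and the STHdhQ7 sum was mostly Stmn2. Stmn2 was at 0.0563 FPKM in STHdhQ111 and 33.5 FPKM in STHdhQ7, and Tubb3 at 3.62 FPKM in STHdhQ111 and 2.42 FPKM in STHdhQ7. Of 11 striatal neuron markers, Rgs9 was called lower, Penk and Pde10a were not called, and 8 were untested, among them Drd1a, Drd2, Ppp1r1b, Bcl11b, Adora2a, Tac1 and Foxp2, which were at 0.182 FPKM or less. Their sum was 7.59 FPKM in STHdhQ111 and 5.16 FPKM in STHdhQ7. Of 4 astrocyte markers Slc1a3 was not called and Gfap, S100b and Aqp4 were untested, the last listed at 0 in both lines. Their sum was 5.11 FPKM in STHdhQ111 and 3.29 FPKM in STHdhQ7. The microglial markers Aif1, Cx3cr1, Itgam and Csf1r were untested, with a sum of 0.409 FPKM in STHdhQ111 and 0.163 FPKM in STHdhQ7. Of the endothelial markers Tek was called higher and Pecam1, Cdh5 and Kdr were untested, with a sum of 1.63 FPKM in STHdhQ111 and 0.447 FPKM in STHdhQ7.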

How the data were processed

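Polyadenylated RNA was sequenced from 2 cell lines. The submitters' processing notes name Cufflinks 2.0.2, Cuffdiff, Bowtie 0.12.7, TopHat 1.4.0 and the mm9 build. Their options and the annotation were not given in the sources used. Per the file headers, the authors deposited 1 table with FPKM of each line, a log2 fold change, a test statistic (a score whose sign is opposite to the fold change), a p-value and a q-value. Replicates were combined, so no spread could be computed and p-values may measure technical spread only. Nothing says that replicates were separate cultures.

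Deposited p-values matched a two-sided normal test of the deposited statistic within 2.68e-06. Dividing each log2 fold change by its statistic therefore gave the implied standard error (SE), and 1.96 times it the 95% interval. The deposited q-value equalled a Benjamini-Hochberg adjustment over 12740 tested genes within 2.22e-06. Locus starts, read as 0-based, were raised by 1. Ratios of low FPKM values (1276 genes) held no common step, so depth could not be recovered. Log2 ratios used a pseudocount of 0.5 FPKM.

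The 49 members and the lists of cofactors, other homeobox genes, signalling genes and markers were chosen with earlier results of these data known. Called genes and the 15 uncalled tested members of highest mean FPKM were named by rule. From each list all called genes were named where there were 6 or fewer, otherwise 4 a direction, with the 2 uncalled genes of highest mean. A few genes that this rule would name are counted but not reported here. The remaining members, Meis2, Bmp4, Bmp6, the motifs and the second-nearest neighbours singled out were named after their values were seen. Sequences and CpG counts came from RefSeq windows (GRCm38.p6). Words of 36 bases, strands and exon overlaps came from GENCODE M21 (GRCm38). No mm9 coordinate was converted. Read length is not given in the sources used here. Steps were tested on simulated data (Python 3.11.15, numpy 2.4.6, pandas 2.3.3, scipy 1.17.1, matplotlib 3.10.9).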

Additional observations from a re-analysis of the deposited data

How the results depend on the processing

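The 7 alternatives to the call rule covered q thresholds of 0.01 and 0.1, a mean of 1 FPKM, no filter, a 4-fold minimum, Benjamini-Yekutieli adjustment and recentring by the median log2 fold change of 11534 expressed genes (-0.05). Homeobox genes called higher ranged from 3 to 4 and those called lower from 4 to 7. With Benjamini-Yekutieli, 4 homeobox genes were called lower (Dlx3, Lhx9 and Six4 were lost) and 1 cofactor (Lmo1 was lost). The calls of Tle1, Ptch1 and Dlx2 were lost there too. With the 4-fold minimum, 0 cofactors were called lower, 7 other homeobox genes were called lower and 2 genes of the BMP and hedgehog list were called higher. These settings are stricter by construction. Recentring turned the direction of Pou2f1 (0.043) and Id1 (0.0086), both uncalled, and took Irx5 past the threshold. The median log2 ratio of -0.43 ranged from -0.49 (mean in place of the median) to -0.01 when the 20 untested genes were included. Over 62 single genes, 394 of 428 values kept direction and side of the threshold, 29 lost the call, 3 gained it and 2 turned. Leaving out a replicate was not possible from combined values. No paired analysis was possible because the columns carry no replicate. Depth is unknown, so no limit can be set on genes listed at 0. The implied standard error was 0.40 to 2.60 for tested homeobox genes. Msx1, Msx2 and Tgif2, with log2 fold changes of -1.48, -1.43 and -1.51 and standard errors of 0.69, 0.71 and 0.72, were not called, while Six4, at -1.37 with 0.43, was.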
